A study of Mus musculus with 30 samples.

Results

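The 300 largest H3K27ac domains of mouse splenic B cells were described across 3 histone acetylation marks, the acetyltransferase CBP and lymphoid progenitors. Peaks of both B cell H3K27ac lists were pooled, and peaks lying within 12500 bp of each other were joined, which gave 12003 domains. The domains were ranked by the length that H3K27ac peaks covered in them (mean of the 2 lists), and the 300 at the top, 2.50% of all domains, were taken. Each domain is called here by its lead gene, the protein-coding gene whose span holds the most of that covered length, followed by its rank where needed. The members were selected on H3K27ac in B cells, so their H3K27ac length in these cells, and its difference from any other group, is a description with no test.

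The wild-type animals were C57BL/6 mice with the labelled genotype CBPfl/fl:Mx-Cre-, which carry loxP-flanked alleles of Crebbp, the gene for CBP, and no Cre. The Crebbp-null animals had the genotype CBPfl/fl:Mx-Cre+, labelled Crebbp-/-, on the same strain and with the same flanked alleles. Mx-Cre is a recombinase under an interferon-responsive promoter and is not restricted to B cells. B220+ splenocytes, isolated by sorting, served as wild-type B cells, whereas the Crebbp-null lymphoproliferative disease (LPD) was taken as bulk splenocytes with no sort. Lymphoid progenitors of either genotype were sorted from bone marrow as lineage-negative, IL7ra-positive cells. LPD and B cell samples therefore differed in genotype, disease and sorting together, and these cannot be told apart. The ages of the mice and how many gave each sample are not given in the sources used here. There were 2 lists per mark for B cells and for LPD, 1 H3K27ac list per progenitor genotype and 1 CBP list from wild-type B cells.

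Acetylation of lysine 27, 18 or 56 on histone H3 marks active promoters and enhancers, and CBP and its relative p300 are the main enzymes that place the first 2 of these marks. Long runs of closely spaced H3K27ac peaks, often called super-enhancers, tend to lie over genes that define a cell type. In B cells these include transcription factors of the lineage, components of the B cell receptor pathway and the genes of MHC class II, which present antigen to T cells. A domain lying over a gene need not act on that gene.

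CBP peaks met the promoter of some lead genes directly, and the sequences of these promoters are shown because they are where the bound acetyltransferase and a member gene coincide. Of the RefSeq promoter windows taken as the 250 bases before a start, 32 windows in 24 members met a CBP peak by at least 1 bp, and 16 lead genes had such a window of their own. The 7 of these lead genes with the highest ranks follow, 5′ to 3′ on the strand of the gene (GRCm38.p6), with capitals on matches to the motifs described beneath.
H2-Eb1: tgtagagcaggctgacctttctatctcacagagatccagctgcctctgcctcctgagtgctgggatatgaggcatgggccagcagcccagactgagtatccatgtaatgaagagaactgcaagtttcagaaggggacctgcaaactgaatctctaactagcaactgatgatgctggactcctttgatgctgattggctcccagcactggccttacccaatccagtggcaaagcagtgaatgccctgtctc
Gimap6: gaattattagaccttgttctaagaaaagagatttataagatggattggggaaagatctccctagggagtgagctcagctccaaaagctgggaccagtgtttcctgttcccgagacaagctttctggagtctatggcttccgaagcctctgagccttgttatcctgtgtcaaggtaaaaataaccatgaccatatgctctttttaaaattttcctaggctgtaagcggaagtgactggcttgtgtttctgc
Tgfbr2: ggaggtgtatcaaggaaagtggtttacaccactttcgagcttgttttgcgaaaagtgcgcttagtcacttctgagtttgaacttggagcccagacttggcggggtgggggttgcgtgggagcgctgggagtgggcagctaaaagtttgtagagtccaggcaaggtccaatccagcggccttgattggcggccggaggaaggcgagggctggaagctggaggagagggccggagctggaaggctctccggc
Lbh: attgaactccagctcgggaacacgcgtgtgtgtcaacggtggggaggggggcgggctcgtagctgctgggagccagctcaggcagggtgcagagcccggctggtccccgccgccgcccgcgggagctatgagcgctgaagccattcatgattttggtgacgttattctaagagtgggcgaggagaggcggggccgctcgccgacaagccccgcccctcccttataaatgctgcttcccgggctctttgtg
Sh3bp5: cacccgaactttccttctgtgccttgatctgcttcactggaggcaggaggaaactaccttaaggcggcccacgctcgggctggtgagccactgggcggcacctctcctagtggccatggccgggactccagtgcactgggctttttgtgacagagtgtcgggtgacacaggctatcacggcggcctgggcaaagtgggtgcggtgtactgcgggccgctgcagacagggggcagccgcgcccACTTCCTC
Mcl1: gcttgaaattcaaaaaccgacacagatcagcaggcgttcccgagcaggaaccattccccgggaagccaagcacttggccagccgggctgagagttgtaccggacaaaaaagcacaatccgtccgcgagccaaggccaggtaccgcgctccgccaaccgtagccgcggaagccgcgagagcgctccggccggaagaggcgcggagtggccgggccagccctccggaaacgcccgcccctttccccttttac
Blnk: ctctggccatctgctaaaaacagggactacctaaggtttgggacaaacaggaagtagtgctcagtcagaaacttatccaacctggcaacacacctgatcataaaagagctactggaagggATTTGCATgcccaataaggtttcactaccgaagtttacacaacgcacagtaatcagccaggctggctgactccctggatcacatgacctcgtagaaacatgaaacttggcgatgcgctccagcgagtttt

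The windows lie at chr17:34305617-34305866 (+ strand) for H2-Eb1, an MHC class II beta chain, at chr6:48708245-48708494 (- strand) for Gimap6, a GTPase of lymphocyte survival, and at chr9:116175364-116175613 (- strand) for Tgfbr2, the type II TGF-beta receptor. The window of Lbh, a transcription cofactor, is chr17:72918055-72918304 (+ strand), and that of Sh3bp5, a protein that binds the kinase Btk, is chr14:31436101-31436350 (- strand). Mcl1, an anti-apoptotic Bcl2 relative, has its window at chr3:95658471-95658720 (+ strand), and Blnk, the adaptor of B cell receptor signalling, at chr19:40994222-40994471 (- strand). Both strands were searched for the cAMP response element TGACGTCA, the octamer ATGCAAAT, the PU.1 core GAGGAAGT and the AP-1 site TGANTCA. An octamer in the reverse orientation starts at base -130 of the Blnk window, counted back from the start, and a PU.1 core in the reverse orientation starts at base -8 of the Sh3bp5 window. No match of the 4 motifs was in the other 5 printed windows.

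Among the 518 promoter windows that lie in members, 19 (3.67%) held an octamer, against 1.60% of all 32851 windows. The PU.1 core was in 3.67% of member windows and 2.44% of all windows, the AP-1 site in 5.98% and 6.75%, and the cAMP response element in 1.35% and 1.55%. Of the 32 member windows under a CBP peak, 2 held an octamer, 2 a PU.1 core, 1 an AP-1 site and 0 a cAMP response element. Windows of alternative starts of 1 gene overlap in part, so these shares are descriptions.

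MicroRNA genes lay in 12 members. The domain of rank 115 (lead gene Supt4a, chr11:87720527-87764439) held Mir142, which encodes miR-142, an abundant microRNA of blood cells. Its mature products are shown with the seed, bases 2 to 8, in capitals.
miR-142a-5p: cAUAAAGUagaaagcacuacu
miR-142a-3p: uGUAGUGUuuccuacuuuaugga

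H3K27ac covered 18.2 and 17.8 kb of the Mir142 domain in the B cell lists and 17.3 and 15.4 kb in the LPD lists. It covered 9.82 kb in wild-type progenitors and 6.29 kb in Crebbp-null progenitors. The B cell and LPD values of this domain did not overlap, but they differed by less than 2-fold, and 3 CBP peaks lay in it.

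The members spanned 12.4 to 138 kb with a median of 40.3 kb, against a median of 1.54 kb over all domains. Covered length ran from 57.2 kb at the top to 12.03 kb at rank 300, with a median of 16.3 kb against 1.22 kb over all domains. The B cell lists differed by a median of 3.15% per member and by 15.05% at most. At the edge of the set, the last 2 members, lead genes Usp6nl and Enpp6, each had 12.03 kb, and the first 2 domains outside it, lead genes Vav2 and H60b, had 11.97 and 11.92 kb. The rank order had no step there, and domains on either side of the edge had nearly the same length.

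**Figure D1:**
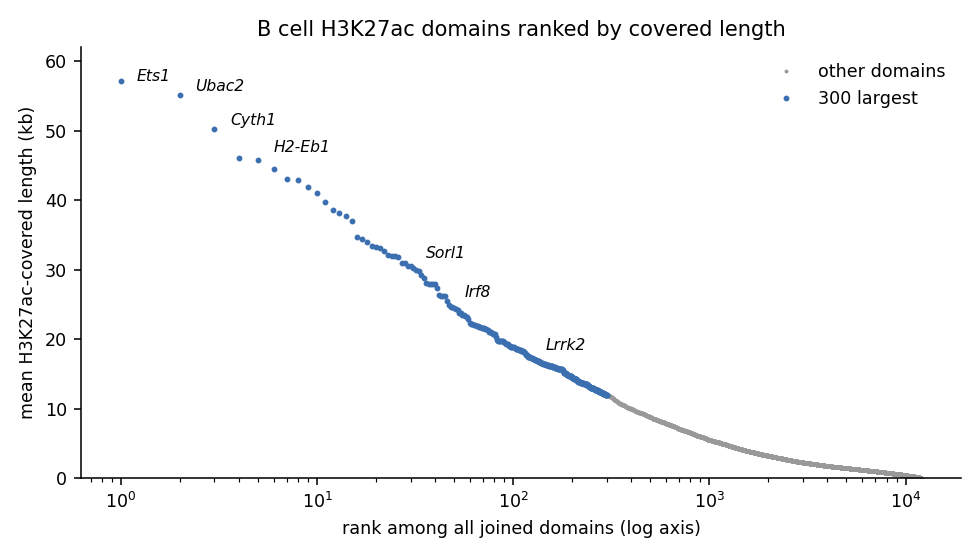
Mean H3K27ac-covered length (kb) of each of the 12003 domains against its rank on a log axis, with the 300 largest in blue. The curve falls smoothly from 57.2 kb at Ets1 through 12.03 kb at rank 300 with no break at the edge of the set.

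A protein-coding gene overlapped 273 members, 17 were named by the nearest gene within 50 kb and 10 had no gene in that distance. The members held 463 protein-coding genes, 2.11% of 21900. A start site lay in 219 members, and 97 members held more than 1 gene. Foxp1, a forkhead factor, was the lead gene of 4 members (ranks 4, 48, 154 and 193), and 10 lead genes had more than 1.

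Ets1, encoding a transcription factor that restrains plasma cell differentiation, had the longest coverage, with 56.3 and 58.1 kb in the B cell lists (chr9:32644910-32751049). The second domain (chr14:121893478-122031625) has Ubac2 as lead gene and also holds Gpr183 and Gpr18, receptors that guide lymphocytes, with 55.6 and 54.7 kb. Cyth1, a guanine exchange factor of integrin adhesion, followed with 50.8 and 49.6 kb. Foxp1 (rank 4) had 46.0 and 46.3 kb and H2-Eb1 (rank 5, chr17:34284617-34356435) had 45.7 and 45.8 kb. Pik3ap1, the B cell adaptor for PI3 kinase, had 45.4 and 43.7 kb, and Il21r, the receptor of interleukin 21, had 42.5 and 43.6 kb. Gimap6 (rank 8), whose domain holds 6 genes of the Gimap cluster, Sgms1, a sphingomyelin synthase, and Ago2, the small RNA effector, completed the first 10 at 40.4 to 43.1 kb per list.

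The genes of several lists written with earlier results of these data known had a larger share in members than the 2.11% of all protein-coding genes. Of 26 genes of B cell receptor signalling, 15 lay in members, as did 14 of 28 B cell transcription factors, 14 of 28 surface and homing receptors, 9 of 15 genes of MHC class II presentation and 11 of 26 immediate early genes. The MHC class II genes lay in 4 domains, of which 3 are on chromosome 17. Of the 19 genes of the NF-kB pathway 2 were in members, Malt1 and Nfkbid, and of 28 lymphoid cancer genes 3 were, Mcl1, Bcl2 and Gna13. Genes of early B cell development (16), germinal centre and plasma cells (15), stem and progenitor cells (12) and acetyltransferases and deacetylases (22) had 0 in members. Among markers of other lineages, 1 of 22 T and NK cell markers, 1 of 20 myeloid markers (Tyrobp) and 0 of 16 erythroid and megakaryocyte markers lay in members. These counts rest on the H3K27ac that chose the members and are given without a test.

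Immunoglobulin segments lay in 2 members. Rank 28 (lead gene Rpia, chr6:70709542-70767122) held 5 J segments of the kappa light chain locus, and rank 142 (nearest gene Olfr164, chr16:19177354-19246826) held a J segment, a J pseudogene and a V segment on the lambda chromosome.

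H3K18ac and H3K56ac in B cells were measured in other libraries than those that chose the members. H3K18ac covered a median of 6.74 kb per member (0.652 kb over all domains) and H3K56ac a median of 4.04 kb (0.563 kb over all domains). Ranked by H3K18ac, 197 members were also among the first 300 domains, and ranked by H3K56ac 193 were. The domains compared in this way were the H3K27ac-joined ones, and longer domains offer more sequence to any mark. Members took up 19.6% of the joined span of all domains. They held 15.9 and 15.8% of the whole H3K18ac lists and 13.76 and 13.74% of the whole H3K56ac lists. Joining and ranking the peaks of the other marks by themselves gave 300 domains each, of which the H3K18ac ones met 180 members and the H3K56ac ones met 161. These 180 members are 60% of the 300, and 185 of the H3K18ac domains (61.7%) met a member in return, while 167 of the H3K56ac domains (55.7%) did.

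Both other marks covered less of the members than H3K27ac in B cells, and neither covered more than H3K27ac in any member. The median ratio to H3K27ac was 0.371 for H3K18ac and 0.229 for H3K56ac. The members were chosen for long H3K27ac in these cells, so a low ratio is in part built in. The whole H3K27ac lists were also longer, at 27.1 and 26.4 Mb. Those of H3K18ac had 13.3 and 14.0 Mb and those of H3K56ac 10.6 and 9.44 Mb. H2-Eb1 was the member with the most of either, with 37.4 and 36.1 kb of H3K18ac and 27.4 and 27.5 kb of H3K56ac.

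CBP peaks lay in 143 members (47.7%, exact 95% binomial interval 41.9 to 53.5%), against a background of 6.23% of all domains. The share was 61 of the first 100, 42 of the next 100 and 40 of the last 100, and it was 29.3% (interval 24.2 to 34.8%) in the 300 domains ranked just after the members. The intervals cover counting error over domains of 1 list. The CBP list holds exactly 1000 peaks, and how that number was reached is not given in the sources used here. Members held 247 of them (24.7%), and 48 members held 2 or more. Larger domains offer more sequence to meet a peak. Per Mb of H3K27ac-covered sequence there were 43.3 CBP peaks in members, 38.9 in the next 300 domains and 32.1 in all domains that are not members, a smaller contrast than the share of domains.

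All 4 MHC class II domains held CBP peaks, and H2-Eb1 and Cd74 had the most of any member. Cd74, encoding the invariant chain (rank 120, chr18:60774189-60811913), had 8 CBP peaks, H2-Eb1 had 13 and H2-Ob, whose domain also holds H2-Ab1 (rank 97, chr17:34234657-34270154), had 6. H2-DMa (rank 19), with the peptide-editing H2-DM genes, had 5. Outside this group, Gimap6 had 7, Zfp36, which encodes an mRNA decay factor, had 6, and the histone gene domain with lead gene H2bc6 had 6. Among the first 10 members, Foxp1 and Sgms1 had 0. A member without a CBP peak in this list is one in which no peak was among the 1000.

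**Figure D2:**
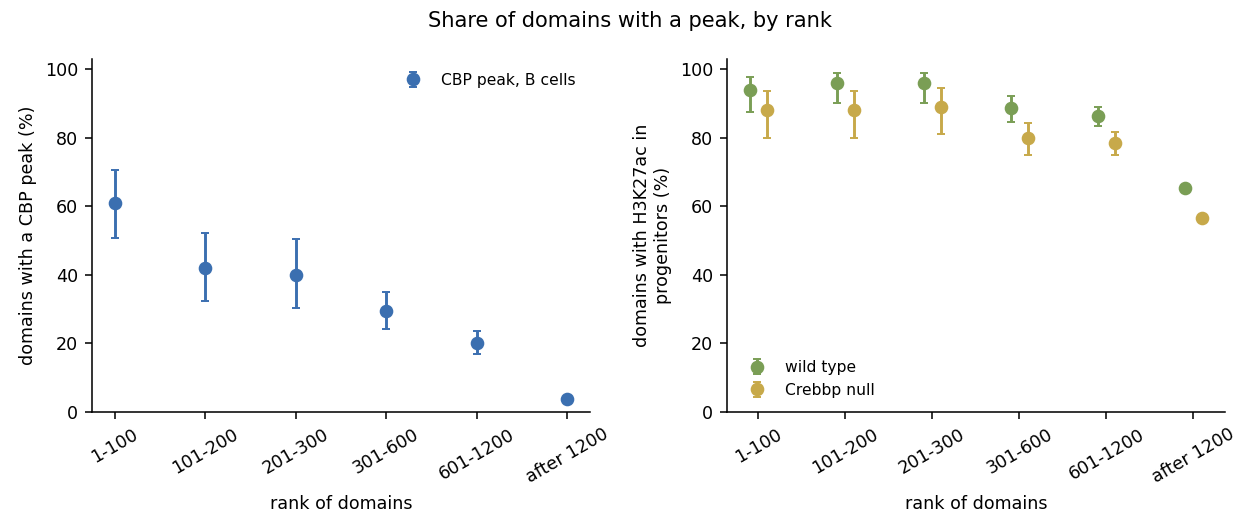
Percent of domains with a CBP peak in B cells (left) and with an H3K27ac peak in wild-type or Crebbp-null progenitors (right) by rank, with exact 95% binomial intervals. The CBP share falls from 61% in the first 100 domains to 3.67% after rank 1200, whereas the progenitor shares of the first 300 stay above 85% in both genotypes.

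Defining markers of other cell types were read from the H3K27ac lists, over each gene widened by 1 kb. All 10 B cell markers had a peak in each B cell and LPD list. Of 22 T and NK cell markers, 5 had a peak in each B cell list (13.2 and 12.6 kb summed) and 4 in each LPD list (5.45 and 4.24 kb), with the defining genes Cd3e, Cd4 and Cd8a at 0 in all 4. Of 20 myeloid markers, 4 had a peak in each B cell list and 6 and 4 in the LPD lists, with 8.01 and 8.50 kb against 7.45 and 5.48 kb, and Lyz2, Csf1r and Adgre1 were at 0 in all 4. Of 16 erythroid and megakaryocyte markers, 2 had a peak in each B cell list and 9 and 6 in the LPD lists, with 2.05 and 1.49 kb against 10.7 and 5.13 kb, and Gata1 and the 4 globin genes were at 0 in all 4. Of 10 lymphoid progenitor markers, 8 had a peak in each progenitor list, 3 in each B cell list and 2 in each LPD list. The LPD was bulk tissue, so fewer cells with a domain and less acetylation per cell cannot be told apart, and the part that the erythroid signal had in the differences described next was not tested.

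H3K27ac covered less of the members in LPD than in B cells, and the whole H3K27ac lists differed less. Summed over the members, it covered 5754 and 5645 kb in the B cell lists and 4013 and 2934 kb in the LPD lists, a log2 difference of -0.73 between the group means of log2 values. The groups did not overlap, and the lower LPD list is the shorter of the pair. The members held 21.2 and 21.4% of the covered length of the B cell lists and 15.3 and 16.1% of that of the LPD lists. The next 300 domains, chosen by the same ranking, went from 10.6 and 10.7% to 7.95 and 8.41%. The B cell lists chose both sets of domains, so this difference was not tested.

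H3K18ac and H3K56ac covered more of the members in LPD than in B cells, but so did their whole lists. H3K18ac summed to 2113 and 2209 kb in the B cell lists and to 4193 and 3278 kb in the LPD lists, a log2 difference of 0.78 (exact two-sided permutation test over lists, p = 0.33, n = 2 against 2). H3K56ac summed to 1455 and 1296 kb and to 2369 and 2526 kb, a log2 difference of 0.83 (exact permutation p = 0.33). With 2 lists a group, 0.33 is the smallest p this test can give, so the difference exceeds the spread between lists without passing a threshold. The lists themselves were 1.84-fold longer in LPD for H3K18ac and 1.77-fold longer for H3K56ac, and 1.23-fold shorter for H3K27ac. As a share of its list, H3K18ac in members went from 15.9 and 15.8% to 14.2 and 15.3% and H3K56ac from 13.76 and 13.74% to 13.90 and 13.81% (exact permutation p = 0.33 for each). Relative to list length, then, the direction for H3K18ac was reversed and H3K56ac differed by 0.112 percentage points.

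**Figure D3:**
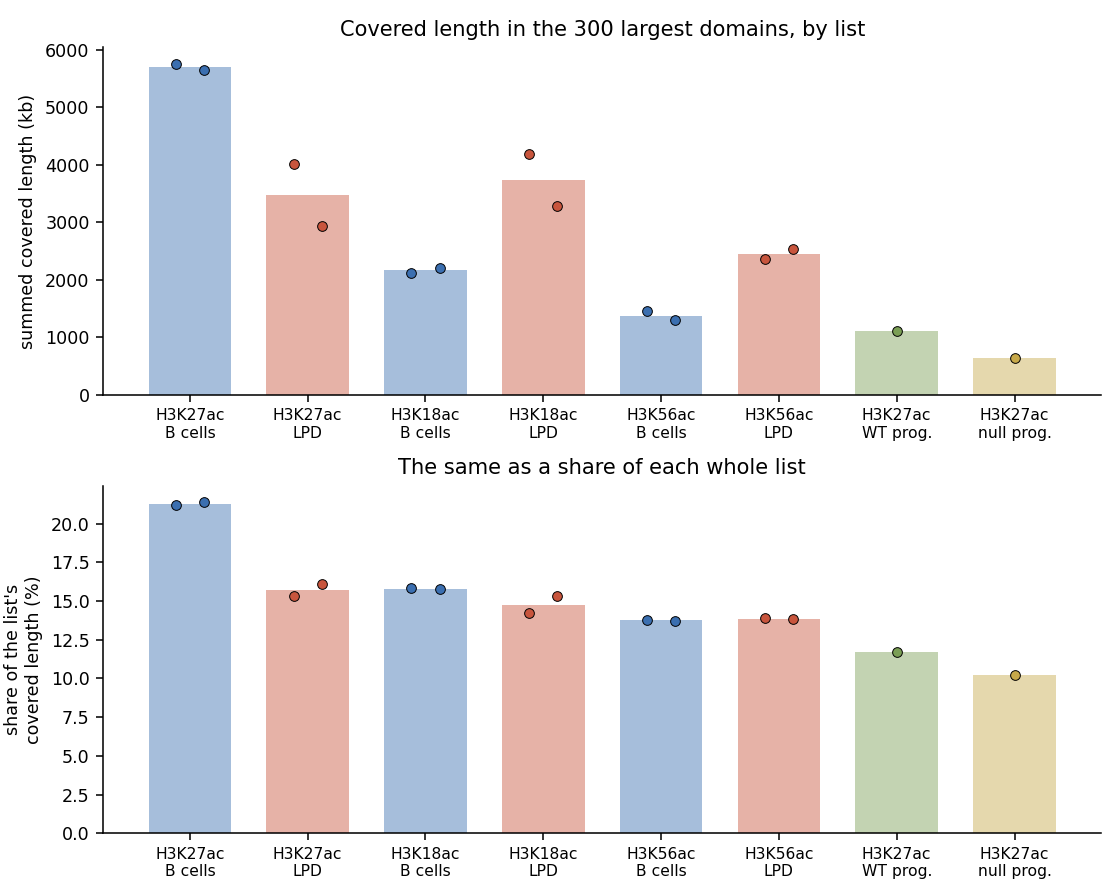
Summed covered length (kb, upper) and the same as a percent of each list's covered length (lower) in the 300 domains, with 1 point per list and bars at the group mean. H3K18ac and H3K56ac bars are higher in LPD in the upper plot, while in the lower plot the H3K18ac points of LPD, at 14.2 and 15.3%, lie below those of B cells and the H3K56ac points of both groups lie within 13.7 to 13.9%.

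The balance of the marks within members changed with it. H3K18ac covered more than H3K27ac in 0 members in B cells and in 175 in LPD, and the median ratio went from 0.371 to 1.05. For H3K56ac the median ratio went from 0.229 to 0.703, with 18 members wider in H3K56ac than H3K27ac in LPD. These ratios move with the lengths of the lists and with the choice of members on H3K27ac, and their part in the change was not tested. Coverage near starts and elsewhere differed in size of change. Within 1 kb of a start site, H3K27ac was lower by a log2 difference of -0.33 (626 ± 6.07 kb to 500 ± 67.6 kb, mean ± SD, n = 2), and farther from starts by -0.79 (5073 ± 71.1 kb to 2974 ± 696 kb). H3K18ac was higher by 0.45 near starts and 0.84 away from them, and H3K56ac by 0.51 and 0.91 (exact permutation p = 0.33 for each). Less the log2 difference in list length, these were -0.42 and -0.04 for H3K18ac, -0.31 and 0.09 for H3K56ac, and -0.04 and -0.50 for H3K27ac.

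Members were then called one by one. A member was called lower or higher in LPD for a mark when both lists of 1 group covered more of it than either list of the other and the group means differed at least 2-fold. For H3K27ac 118 members (39.3%) were lower, against 28.2% of all domains, and 3 (1%) were higher, against 0.850%. The 300 domains ranked next had 40% lower, so the members were not set apart from them. For H3K18ac 109 members (36.3%) were higher, against 21.3% of all domains, and 18 (6%) were lower, against 7.31%. For H3K56ac 109 (36.3%) were higher, against 20.2%, and 21 (7%) were lower, against 6.32%. The next 300 domains had 33.3% and 36% higher for the 2 marks.

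Scaling each list by its covered length changed this split. With covered length per Mb of list, 43 members were lower and 23 higher for H3K18ac, 53 lower and 27 higher for H3K56ac, and 93 lower and 4 higher for H3K27ac. Per Mb, the calls over all domains were 24.3% lower and 2.73% higher for H3K27ac (31% and 1.33% of members), 20.8% lower and 10.6% higher for H3K18ac, and 13.0% lower and 10.01% higher for H3K56ac. The 18 and 21 members lower as covered length were also lower per Mb, whereas 23 of 109 and 27 of 109 members higher as covered length were. Statements on higher H3K18ac or H3K56ac therefore hold for covered length, and the scaled value is given beside them.

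**Figure D4:**
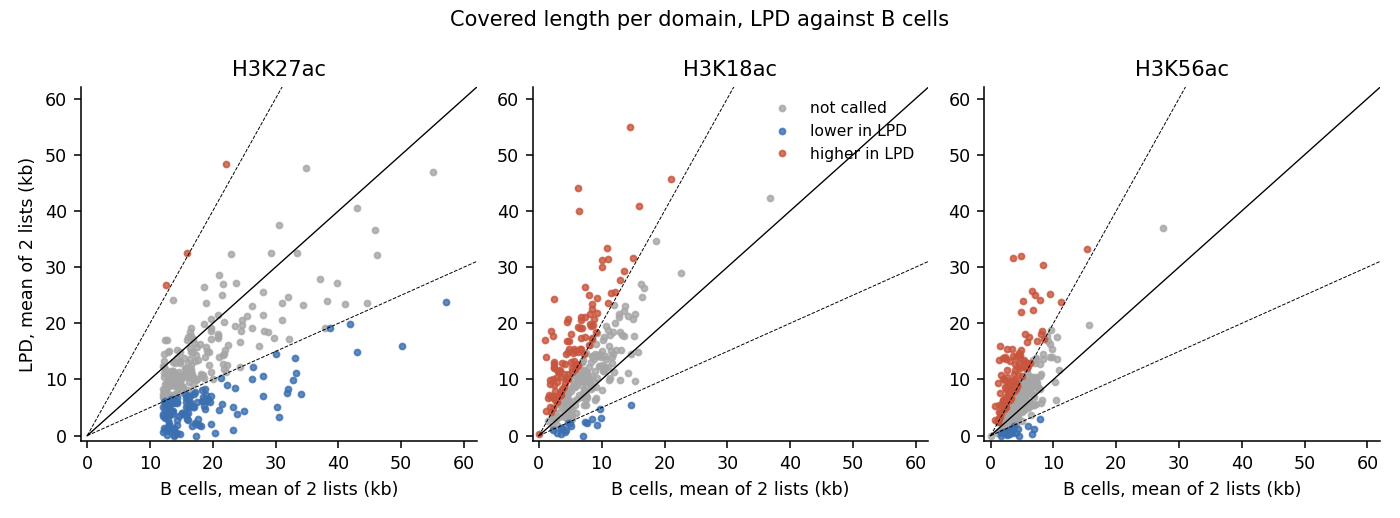
Mean covered length (kb) of each of the 300 domains in LPD against B cells for H3K27ac, H3K18ac and H3K56ac, with the line of equality and dashed lines at a 2-fold difference. Blue points were called lower in LPD (118, 18 and 21) and red points higher (3, 109 and 109).

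As covered length, most members lower for H3K27ac were not lower for the other marks. Of these 118 members, 18 were lower for H3K18ac, 13 higher and 87 not called, and 21 were lower for H3K56ac, 9 higher and 88 not called. Over all domains 28.2% were lower for H3K27ac, 7.31% for H3K18ac and 6.32% for H3K56ac. There too, most domains lower for H3K27ac were not lower for H3K18ac, and most were not lower for H3K56ac. The pattern was therefore not particular to the members. As covered length, no member was lower for H3K18ac or H3K56ac without being lower for H3K27ac, whereas per Mb of list 4 members were lower for H3K18ac and 6 others for H3K56ac without it. By covered length this was rare over all domains too, with 0.558% lower for H3K18ac alone and 0.392% for H3K56ac alone. Its absence from members is therefore not read as a result about them. On the per Mb scale 93 members were lower for H3K27ac, 43 for H3K18ac and 53 for H3K56ac. A larger part of the members lower for H3K27ac therefore shared the call with another mark on that scale. By covered length 15 members (5%) were lower for all 3, against 3.58% of all domains. A further 80 members (26.7%) were higher for H3K18ac and H3K56ac and not called for H3K27ac, against 10.4% of all domains, and 10 of these 80 kept that pattern per Mb of list. In 77 members (25.7%) H3K27ac was lower and neither other mark was called, again as covered length, against 15.7% of all domains.

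Per Mb of list 32 members were lower for all 3 marks, and the 15 found by covered length were among them. In the Lrrk2 domain (rank 122, chr15:91631910-91681352), over a kinase gene known from Parkinson disease, H3K27ac covered 17.6 and 17.2 kb in B cells, H3K18ac 7.05 and 7.15 kb and H3K56ac 4.47 and 4.50 kb. None of the 6 LPD lists had a peak there. Armc9 (rank 218), a gene of ciliary signalling, had 13.9 and 13.7 kb of H3K27ac in B cells, 0 kb of H3K27ac and H3K56ac in LPD and 0.356 and 0.229 kb of H3K18ac. These 2 members were the ones with no H3K27ac in either LPD list.

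Ttll5 (rank 58, chr12:85955685-85994525), a tubulin glutamylase gene, had 23.1 and 23.4 kb of H3K27ac in B cells against 1.84 and 0.357 kb in LPD. Its H3K18ac went from 15.2 and 14.1 kb to 6.68 and 4.35 kb and its H3K56ac from 7.53 and 6.15 kb to 1.18 and 1.09 kb. Each LPD value lay below each B cell value of the same mark. The domain nearest to Mdm1 (rank 82) had 20.5 and 20.2 kb of H3K27ac in B cells and 0.824 and 0 kb in LPD. A domain with no gene within 50 kb (rank 113, chr13:83040812-83085666) had 18.3 and 18.1 kb against 2.46 and 1.13 kb. Dusp2 (rank 208), an immediate early gene for a nuclear phosphatase of MAP kinases, had 14.7 and 13.9 kb against 2.64 and 1.33 kb.

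The rest of the 15 included 3 signalling or surface genes of B cells. For St6gal1 (rank 190), a sialyltransferase whose product is bound by CD22, H3K27ac was 15.1 and 14.6 kb in B cells and 0.548 and 0 kb in LPD. Plcg2 (rank 266), the phospholipase of B cell receptor signalling, had 12.4 and 13.0 kb against 1.06 and 0.880 kb. Ptk2b (rank 210), a focal adhesion family kinase, was also lower for all 3. Pxdc1 (rank 215) had 14.4 and 13.3 kb in B cells and 0.204 and 0 kb in LPD. Slc10a7 (rank 295), Zcchc7, Dtwd2, Lpp and a domain without a gene (rank 287) made up the remainder.

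The 5 domains with the longest H3K27ac differences, Cyth1, Ets1, Il21r, Sorl1 and Bmp2k, were not called for the other 2 marks as covered length. Per Mb of list Bmp2k was lower for both and Sorl1 for H3K56ac. Cyth1 had 50.8 and 49.6 kb in B cells and 19.3 and 12.6 kb in LPD, while its H3K18ac was 10.3 and 11.6 kb against 21.6 and 16.0 kb. Ets1 had 56.3 and 58.1 kb against 29.4 and 18.2 kb, with H3K18ac of 13.4 and 14.8 kb against 25.1 and 17.4 kb. Il21r had 42.5 and 43.6 kb against 16.6 and 13.1 kb. In these 3 domains the H3K18ac covered length of LPD lay above that of B cells. Per Mb of list its mean lay below, with log2 differences of -0.11 for Cyth1, -0.31 for Ets1 and -0.17 for Il21r. Their H3K56ac log2 differences per Mb were -0.72, -0.16 and 0.12, and neither other mark was called either way per Mb. Sorl1 (rank 30), a sorting receptor gene, had 30.2 and 30.9 kb against 4.68 and 2.02 kb, and Bmp2k (rank 18), a kinase of endocytosis, had 34.8 and 33.1 kb against 10.01 and 4.95 kb. Irf8 (rank 47), a transcription factor of B and myeloid cells, had 24.96 and 24.88 kb of H3K27ac against 6.39 and 2.35 kb, and 7.95 and 7.84 kb of H3K56ac against 2.62 and 3.22 kb. Its H3K18ac, 9.71 and 10.3 kb against 9.17 and 7.19 kb, was called lower per Mb alone. Irak3 (rank 252), an inhibitor of Toll-like receptor signalling, had H3K18ac of 7.66 and 7.73 kb in B cells against 2.49 and 2.16 kb in LPD.

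Sh3bp5, Ikzf1 and Dnajc7 were the 3 members higher for all 3 marks, and they were higher for all 3 per Mb too. Sh3bp5 (rank 63, chr14:31372724-31437148), whose promoter is printed above, had 21.9 and 22.3 kb of H3K27ac in B cells and 53.6 and 42.9 kb in LPD. Its H3K18ac went from 6.16 and 6.63 kb to 44.2 and 36.0 kb, and its H3K56ac from 5.16 and 4.50 kb to 30.8 and 33.1 kb. Ikzf1 (rank 165, chr11:11714676-11788905), the gene of the lymphoid factor Ikaros, had 16.3 and 15.5 kb of H3K27ac against 41.8 and 23.1 kb. Its H3K18ac was 1.12 and 0.711 kb in B cells and 21.2 and 12.9 kb in LPD, a log2 difference of 3.29 per Mb of list. Dnajc7 (rank 274), a co-chaperone gene, had 12.7 and 12.4 kb of H3K27ac against 32.1 and 21.5 kb. With the first LPD H3K27ac list left out, 0 members were higher for H3K27ac as covered length. In these 3 domains the second LPD list still lay above both B cell lists, but by less than 2-fold. Their H3K27ac calls by covered length therefore need the first list to pass that fold. Leaving out a list was not repeated per Mb of list.

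For H3K18ac the longest increase in covered length was in the domain nearest to Tomm20 (rank 17, chr8:126797061-126887630), with 13.9 and 15.2 kb in B cells and 57.6 and 52.3 kb in LPD. Its H3K27ac was 34.7 and 34.0 kb against 26.7 and 19.6 kb, below the B cell values by less than 2-fold, so the 2 marks differed in direction there. Grb2 (rank 16, chr11:115627703-115719323), an adaptor of receptor signalling, had H3K18ac of 6.02 and 6.56 kb against 50.7 and 37.5 kb and H3K56ac of 3.14 and 4.07 kb against 29.6 and 33.5 kb. Both domains were called higher for both marks per Mb of list. Pdcd1lg2 (rank 29), encoding the PD-1 ligand PD-L2, and Map3k1 (rank 59), a kinase of the JNK pathway, were higher for both marks as covered length. Per Mb their H3K56ac was called and their H3K18ac was not. Ubac2 (rank 2), with 19.97 and 22.04 kb of H3K18ac against 50.3 and 41.1 kb, was called as covered length and not per Mb.

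**Figure D5:**
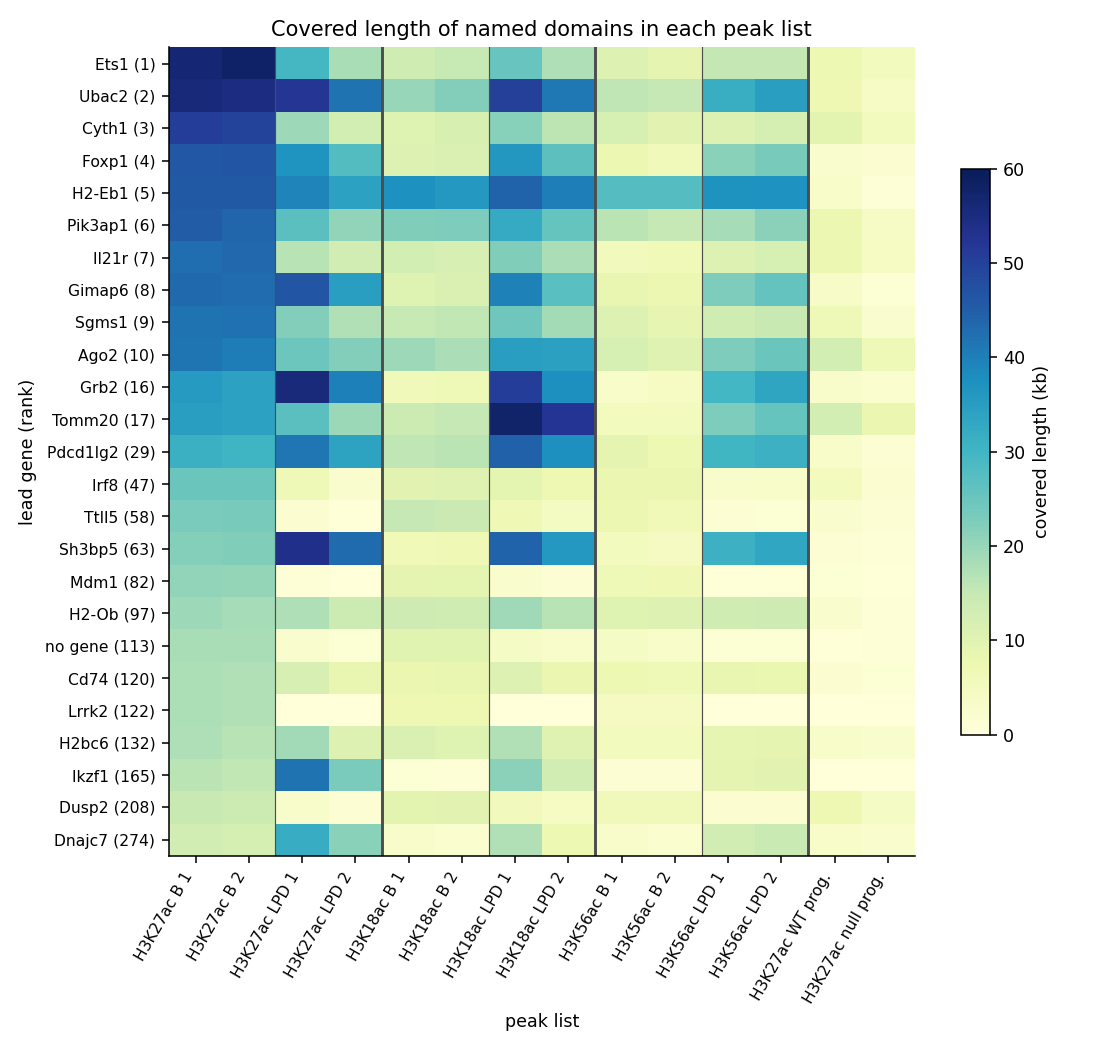
Covered length (kb, colour) of 25 named domains, in rows by rank, in each acetylation list, in columns. Lrrk2 is at 0 in all LPD columns, Sh3bp5 and Ikzf1 are darker in LPD for each mark, and H2-Eb1 has the most H3K18ac and H3K56ac in B cells of any row.

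The 19 domains that hold B cell transcription factors included 5 lower and 1 higher for H3K27ac, with a median log2 difference of -0.52 against -0.77 over all members with a value. Of all members 39.3% were lower and 1% higher. The 5 were Ets1, Bach2, Irf8, 1 of the 4 Foxp1 domains (rank 154) and 1 of the Ebf1 domains (rank 235). Per Mb 2 of the 5, Ets1 and Irf8, were lower, against 31% of all members. Pax5 (rank 214), which commits cells to the B lineage, had 13.9 and 14.0 kb against 12.7 and 9.65 kb and was not called. Ebf1 at rank 230 had 13.6 and 13.6 kb against 13.3 and 9.71 kb. For H3K18ac 11 of the 19 were higher and for H3K56ac 10 were, and per Mb 2 and 4 were. Of all members 36.3% were higher for each of these marks, and per Mb 7.67% and 9% were. Fli1 (rank 68), an Ets factor, was among those called for both marks on either scale, with H3K18ac of 1.30 and 3.45 kb against 14.4 and 11.2 kb.

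The 16 domains of B cell receptor signalling had 6 lower and 0 higher for H3K27ac, with a median of -0.91. Per Mb 3 were lower, and Syk and Blnk were not among them. The 6 of 16 are to be read against 39.3% of all members. Cd72 (rank 159), an inhibitory co-receptor, had 16.9 and 15.2 kb against 4.85 and 3.06 kb. Syk (rank 32), the kinase at the receptor, had 30.3 and 29.7 kb against 17.5 and 11.6 kb, and Blnk (rank 129) had 17.9 and 16.2 kb against 9.45 and 5.54 kb. Blk (rank 72), a Src family kinase, had 22.2 and 20.9 kb against 26.9 and 23.2 kb and was not called. Among the 16, H3K18ac was higher in 8 and lower in 1, the Plcg2 domain, while per Mb it was higher in 2 and lower in 2. Over all members it was higher in 36.3% and lower in 6%, and per Mb in 7.67% and 14.3%.

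Of the 13 domains with surface and homing receptors, 6 were lower and 0 higher for H3K27ac, and the same number were lower per Mb. Of all members 39.3% were lower, and 31% per Mb. Ccr6 (rank 31), a receptor for CCL20, had 30.5 and 30.1 kb against 6.59 and 3.60 kb. Ccr7 (rank 40), which guides cells to lymph nodes, had 28.2 and 27.8 kb against 12.1 and 9.10 kb, and Cxcr4 (rank 104) had 18.7 and 18.5 kb against 6.44 and 4.15 kb. Cxcr5 (rank 121), the receptor for the follicle, had 17.0 and 17.9 kb against 17.6 and 13.8 kb and was not called. The domains with lead genes Ubac2, S1pr1, Cd83, Cd38, Cd180 and Pigr were not called either.

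None of the 4 MHC class II domains was called for H3K27ac, and their median log2 difference was -0.29. H2-Eb1 had 39.2 and 34.0 kb in LPD and H2-Ob had 17.4 and 14.0 kb against 19.3 and 18.4 kb. Cd74 had 11.8 and 8.28 kb against 17.7 and 17.2 kb, and H2-DMa had 36.4 and 28.5 kb against 34.1 and 32.8 kb. Only the H2-DMa domain of the 4 was higher for H3K18ac and H3K56ac as covered length, and none was called per Mb. Among the 11 immediate early domains, 4 were lower for H3K27ac, namely Nr4a1, Fos, Dusp2 and Fosb, with a median of -0.78 close to that of all members. The 4 of 11 are to be read against 39.3% of all members, and per Mb 3 were lower, against 31%. Zfp36 had 16.2 and 15.9 kb against 12.3 and 10.4 kb and Junb 16.3 and 16.5 kb against 14.92 and 12.51 kb, and neither was called.

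CBP in B cells did not separate the members by their H3K27ac difference. Of the 143 with a CBP peak 39.2% were lower in LPD, and of the 157 without one 39.5% were, with medians of -0.77 in both. For H3K18ac 31.5% of members with a CBP peak were higher and 40.8% of those without, and for H3K56ac 33.6% and 38.9%. Per Mb these shares were 6.29% and 8.92% for H3K18ac and 6.29% and 11.465% for H3K56ac, and 29.4% and 32.5% were lower for H3K27ac. These differences were not tested.

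In progenitors the members were short of H3K27ac but seldom empty. H3K27ac was present in 286 members (95.3%) in the wild-type list, against 67.8% of all domains, and in 265 (88.3%) in the Crebbp-null list, against 59.0%. In the next 300 domains the shares were 88.7 and 80%. As for CBP, longer domains offer more sequence to meet a peak. The median covered length was 2.91 kb in wild-type and 1.61 kb in Crebbp-null progenitors, and members held 11.7 and 10.2% of the lists. Joined and ranked alone, the wild-type progenitor list put 114 members among its 300 largest domains, and 120 of its 300 (40%) met a member.

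With 1 list per genotype the comparison of progenitors has no replicate check. Covered length summed to 1105 kb in wild-type and 645 kb in Crebbp-null progenitors, a log2 difference of -0.78, against -0.58 for the whole lists and -0.73 for the next 300 domains. At least 2-fold lower in the null list were 108 members (36%), against 17.5% of all domains, and 0 were at least 2-fold higher, against 0.875%. The lower call needed a wild-type peak, which 95.3% of members and 67.8% of all domains had. Domains without one could not be called, so the 2 shares are not on a like footing. The next 300 domains had 32.7% lower. The null value lay below the wild-type value in 277 members and above it in 9.

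The members with the most progenitor H3K27ac were Cabp4 (rank 27, a gene-dense domain), Inpp5d, Sema4d, the Tomm20 domain and Ago2, at 12.4 to 15.2 kb in wild-type cells. For Sema4d, a semaphorin of lymphocytes, the covered length was 12.9 kb with wild-type and 5.39 kb with null Crebbp, for Ago2 12.4 and 6.53 kb, and for Inpp5d, the phosphatase SHIP1, 14.5 and 8.87 kb. The largest differences in the other direction were small. Foxp1 had 1.605 and 2.02 kb at rank 193 and 2.08 and 2.30 kb at rank 48, and Ebf1 had 0.613 and 0.860 kb at rank 230.

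No progenitor peak of either genotype lay in 14 members. Among them were Ccr6, Bcl2, Fcrl1, Armc9, Pxdc1, Slc10a7 and Ikzf1. Of the 14, 8 were lower for H3K27ac in LPD, 1 was higher (Ikzf1) and 5 were not called. The shares over all members were 39.3% lower and 1% higher, and 28.2% of all domains were lower. With 14 domains these counts are a description. Over all members, those lower in LPD had a median of 2.18 kb in wild-type progenitors, and those not called had 3.40 kb. Whether progenitor H3K27ac and the difference in LPD go together was not tested.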

How the data were processed

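The authors deposited peak positions, with no score or read count per peak, so read depth is unknown and the number and covered length of the peaks stand in for it. H3K27ac lists held 27581 to 31924 peaks (18.2 to 27.1 Mb) in B cells and LPD, H3K18ac lists 22485 to 39529 (13.3 to 29.5 Mb) and H3K56ac lists 18763 to 28934 (9.44 to 18.3 Mb). The progenitor lists held 17124 and 13125 peaks. Reads were aligned with Bowtie2 2.1.0 and peaks called with MACS2 2.0.10 on mm10, with Picard and bedtools also used, per the submitters' processing notes. Of 30 samples, 15 gave a list analysed here and 15 were not analysed here. The labels do not say whether the 2 lists of a group came from separate animals, so their spread may be technical.

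Covered length per domain and list and the exact permutation tests were computed in Python 3.11.15 (pandas 2.3.3, NumPy 2.4.6). Exact binomial intervals used SciPy 1.17.1, and overlap meant 1 bp or more. The call per domain was run on simulated lists with no shift in list length between groups, so that check does not cover the differences in list length here. The members, gene lists and tests were chosen with earlier results of these data known. Named domains were the 10 of highest rank, up to 5 with the longest difference per mark and direction, those sharing a call in all 3 marks (up to 5 lower), the 5 with the most CBP-covered length, the extremes in progenitors and up to 4 members of highest rank per gene list. All others named with values, such as Pax5, Cxcr5 and Plcg2, were chosen after their values were seen. The alternatives were other join distances, set sizes, ranking by span, scaling by list length, lists shortened to the shortest, no minimum fold, leaving out each list and a replicate block. A list was shortened by dropping its narrowest peaks until it was no longer than the shortest list it was compared with. Some members of the gene lists are not reported here.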

Additional observations from a re-analysis of the deposited data

How the results depend on the processing

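Over 15 results and 22 alternative settings, 177 values were recomputed. Of these 5 reversed and 23 moved. The other 149 include H3K18ac and H3K56ac differences judged on direction alone, and H3K27ac differences that moved by less than the spread between lists or, with 1 list per genotype, by less than 1.5-fold. Some of these lost most of their size. The reversals were all in H3K18ac and H3K56ac measured against list length. The H3K18ac log2 difference of 0.78 became -0.10 as a share of its list and 0.34 with lists shortened to the shortest. The H3K56ac log2 difference of 0.83 became 0.01 and 0.25, that of H3K27ac, -0.73, became -0.44 and -0.58, and that between progenitor genotypes, -0.78, became -0.20 and -0.29. The difference in share for H3K18ac, -1.04 percentage points, was 0.0888 with ranking by span and 4.22 with lists shortened to the shortest. For H3K56ac the difference in share, 0.11, was -0.13 with peaks joined within 5 kb, -0.0753 with the top 500 domains and 2.58 with shortened lists. The H3K27ac difference in share, -5.58, was -4.79 with 5 kb, -4.08 with the top 200, -7.46 with the top 500, -3.73 with ranking by span and -8.31 with shortened lists. The cause was not tested.

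As a share of list, H3K18ac was lower in 14.3% and higher in 7.67% of members and H3K56ac in 17.7% and 9%. With shortened lists H3K18ac was lower in 14.7% and higher in 17.3%, and H3K56ac in 21% and 14.3%. Over all domains these shares were 36.8% and 5.36% for H3K18ac and 27% and 5.85% for H3K56ac. Shortening dropped the narrowest peaks first. Peaks of the LPD H3K18ac lists averaged 1.09 and 0.825 kb in members and 0.745 and 0.608 kb over the whole lists. Members could therefore keep more of their peaks than other domains, so this contrast is not read as a result about members. With no minimum fold, H3K27ac was lower in 82.3% and higher in 5.33%, H3K18ac in 10.7% and 71%, and H3K56ac in 17% and 74.7%. H3K56ac was lower in 4% of the top 200. H3K27ac was higher in 0% of members with 5 kb, 2% with ranking by span, and 0 to 1.33% when 1 list was left out. Of the called members, the percent that were lower went from 14.2 to 65.2 per Mb of list and 45.8 with shortened lists for H3K18ac, from 16.2 to 66.3 and 59.4 for H3K56ac, and from 97.5 to 95.9 and 97.3 for H3K27ac.

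The deviations of same-numbered lists correlated at -0.05 for H3K27ac, 0.02 for H3K18ac and -0.01 for H3K56ac over members. Domains are not replicates, so these values cannot settle whether the replicate numbers pair the lists. With a replicate block the log2 differences were -0.73, 0.78 and 0.83, which a block cannot change with 2 lists in each group, so this says nothing about stability.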
